A study of Mus musculus with 2 samples.

Results

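The genes described here are 9 mouse genes tied to Alzheimer disease, namely App, Apoe, Clu, Mapt, Psen2, Bace1, Bin1, Picalm and Trem2. They were chosen by symbol as genes of amyloid production or of inherited risk, not by a rule on their values, although earlier results of these data were known. All 9 were found among the 55357 genes of both count tables. The question put to the data was how much of each gene was present in each cell class of the hippocampus, and whether that level differed between mice given a Cre virus and their controls.

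Nuclear RNA of hippocampal tissue was counted in 2 single-nucleus libraries, 1 per group. The library labelled Bcas2 knockdown came from Bcas2F/F mice, in which Cre can remove a loxP-flanked stretch of Bcas2, injected with AAV2/9-Syn-cre, an adeno-associated virus with Cre recombinase driven by the synapsin promoter, a promoter of neurons. The control library came from AAV-vehicle injected Bcas2F/F mice, although its genotype label reads WT, so that both groups carry the floxed allele by their titles. The labels do not say how many mice entered a library, how old they were, of which sex, or which stretch of Bcas2 is floxed. With 1 library per group there is no replicate spread, no test and no p-value. All intervals below are 95% intervals that cover counting error of UMIs (unique molecular identifiers, 1 per captured RNA molecule) and nothing else.

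Amyloid-beta is cut from the precursor protein App by the beta-secretase Bace1 and then by gamma-secretase, and Psen2 encodes a catalytic subunit of that enzyme. Apoe and Clu are secreted lipid carriers made mainly by astrocytes in healthy brain, and Trem2 is a lipid-sensing receptor of microglia. Mapt encodes the microtubule protein tau, and Bin1 and Picalm encode proteins that shape membrane and bring clathrin to sites of endocytosis.

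After filtering, 12317 nuclei remained in the knockdown-labelled library, with a median of 5792 UMIs, and 11162 in the control library, with a median of 2482. The libraries differed in makeup. Oligodendrocyte-like nuclei were 16.9% of the knockdown-labelled and 63.1% of the control nuclei, dentate gyrus (DG) granule-like nuclei 16.3% and 4.84%, GABAergic-like nuclei 15.8% and 0.941%, microglia-like nuclei 2.22% and 9.84%, and nuclei of unnamed clusters 24.8% and 2.54%. Within each of the 7 classes compared here, however, the control nuclei were the deeper ones, with medians of 1969 against 2315 UMIs in oligodendrocyte-like and 6312 against 7231 UMIs in DG granule-like nuclei. Both libraries held male and female nuclei, with 4757 and 3737 in the knockdown-labelled library against 3221 and 4766 in the control library, and 56 barcodes occurred in both. Another 2080 knockdown-labelled and 1039 control nuclei had both Y-linked and Xist UMIs, and 1743 and 2136 had neither. These nuclei were left out of the male and female values below. Bcas2 itself had 33.7 CPM (UMIs of a gene per 1000000 UMIs of the class) in knockdown-labelled and 34.4 CPM in control DG granule-like nuclei, a log2 ratio of -0.03 (-0.30 to 0.25). It was higher in the knockdown-labelled library in astrocyte-like (1.25, 0.63 to 1.90), microglia-like (1.23, 0.58 to 1.85) and oligodendrocyte-like nuclei (0.67, 0.44 to 0.89). In GABAergic-like, oligodendrocyte precursor-like and fibroblast-like nuclei its interval spanned 0. The label is therefore kept below as the name of a library, not as a measured loss of Bcas2, and counts outside a deleted part would not show a deletion.

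Levels are sums over the nuclei of a class, given as CPM, in every class with at least 50 nuclei in a library, which made 22 class and library units over 13 classes. Each class is named from markers as "-like", and every class in these units had its own markers detected. In both libraries the order of classes differed strongly between the genes. Among these units Apoe and Clu were highest in astrocyte-like nuclei, Picalm and Trem2 in microglia-like nuclei, and App, Mapt and Bin1 in oligodendrocyte-like nuclei. Perivascular macrophage-like nuclei of the control library, at 49 nuclei just under the minimum, had Apoe at 4050.4 CPM (3713 to 4410.0), above the astrocyte-like level. Their Picalm was at 671 CPM (538 to 827), and this interval overlapped the microglia-like one. Psen2 and Bace1 were low everywhere, and most neighbouring classes in their order had overlapping intervals.

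**Figure D1:**
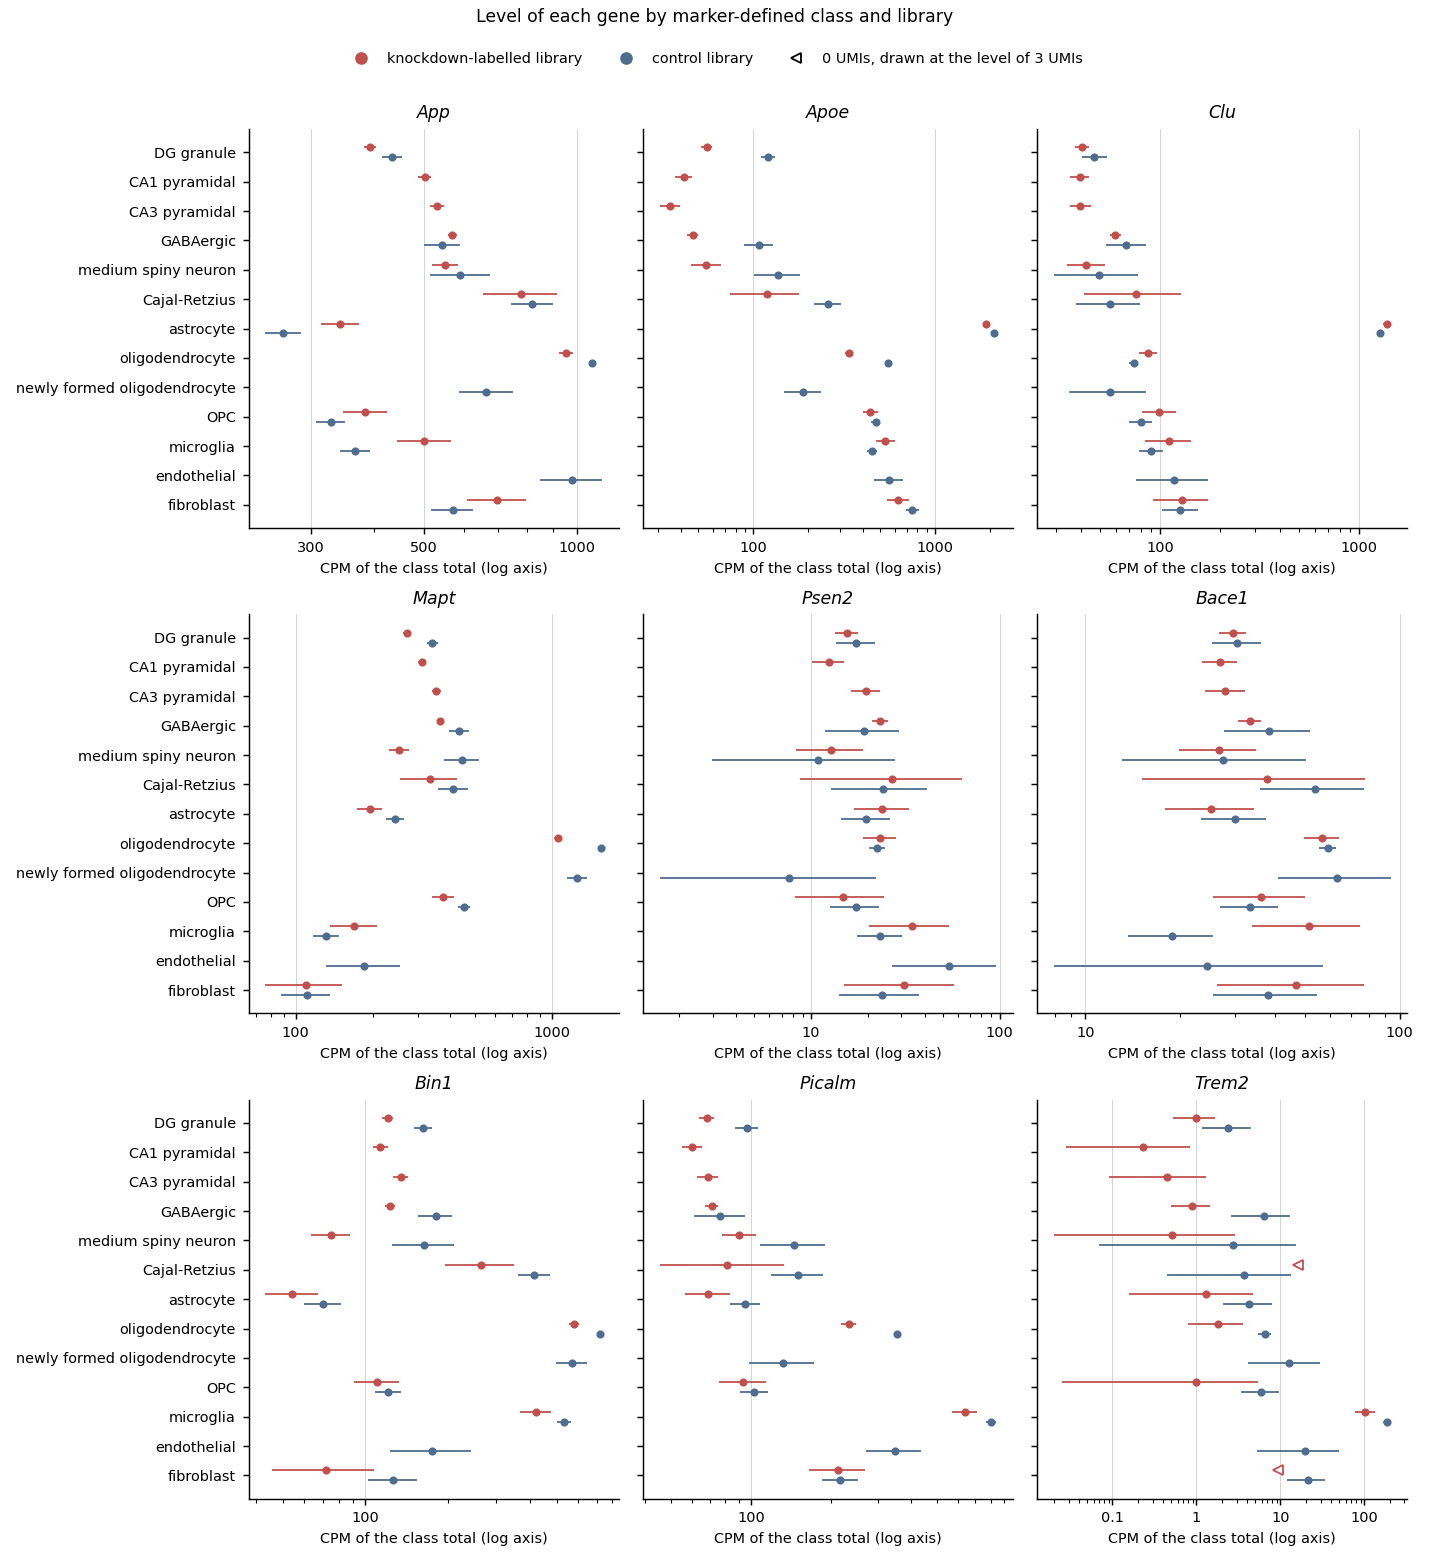
Level of each of the 9 genes (CPM of the class total, log axis) by marker-defined class, with the knockdown-labelled library in red above the control library in blue and 95% Poisson intervals as bars. Clu stands out in astrocyte-like nuclei, at 1380 CPM in the knockdown-labelled and 1278 CPM in the control library, and Trem2 in microglia-like nuclei, at 103 and 186 CPM; classes under 50 nuclei in a library have no point.

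The libraries were compared in 7 classes with at least 100 nuclei in each, which gave 63 pairs of gene and class. At least 50 UMIs over both libraries were present in 56 pairs, and the other 7 are given by count only. A pair is called higher or lower when the CPM differed by at least 1.5-fold. Of the 56 pairs, 1 was called higher (1.79%), against 14.9% of all 73432 gene and class pairs measured in the same classes, and 7 were called lower (12.5%), against 8.63% of all pairs. The log2 ratio, knockdown-labelled over control, was below 0 in 38 pairs and above 0 in 18, and its median was -0.16 against 0.04 over all pairs. The share called lower was thus near that of all genes. The 7 lower pairs were Apoe in DG granule-like, GABAergic-like and oligodendrocyte-like nuclei, Trem2 in microglia-like and oligodendrocyte-like nuclei, Picalm in oligodendrocyte-like nuclei and Bin1 in fibroblast-like nuclei. The higher pair was Bace1 in microglia-like nuclei.

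The calls can be read class by class against all genes measured there. In oligodendrocyte-like nuclei 3 of 9 genes were lower and 0 higher, against 7.25% of all genes lower and 24.8% higher. In microglia-like nuclei 1 of 9 was lower and 1 higher, against 11.3% and 16.2%. One of 8 was lower in DG granule-like nuclei, against 5.7% of all genes, with 0 higher against 9.15%, and 1 of 8 in GABAergic-like nuclei, against 11.7%, with 0 higher against 13.6%. Of 6 genes in fibroblast-like nuclei 1 was lower, against 14.8%, and 0 higher, against 12.3%. In astrocyte-like and OPC-like nuclei (OPC, oligodendrocyte precursor cell) none of the 8 was called, where 6.22% and 6.99% of all genes were lower and 14.1% and 11.6% higher. With 6 to 9 genes a class, these shares move by more than 10 percentage points with 1 gene.

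**Figure D2:**
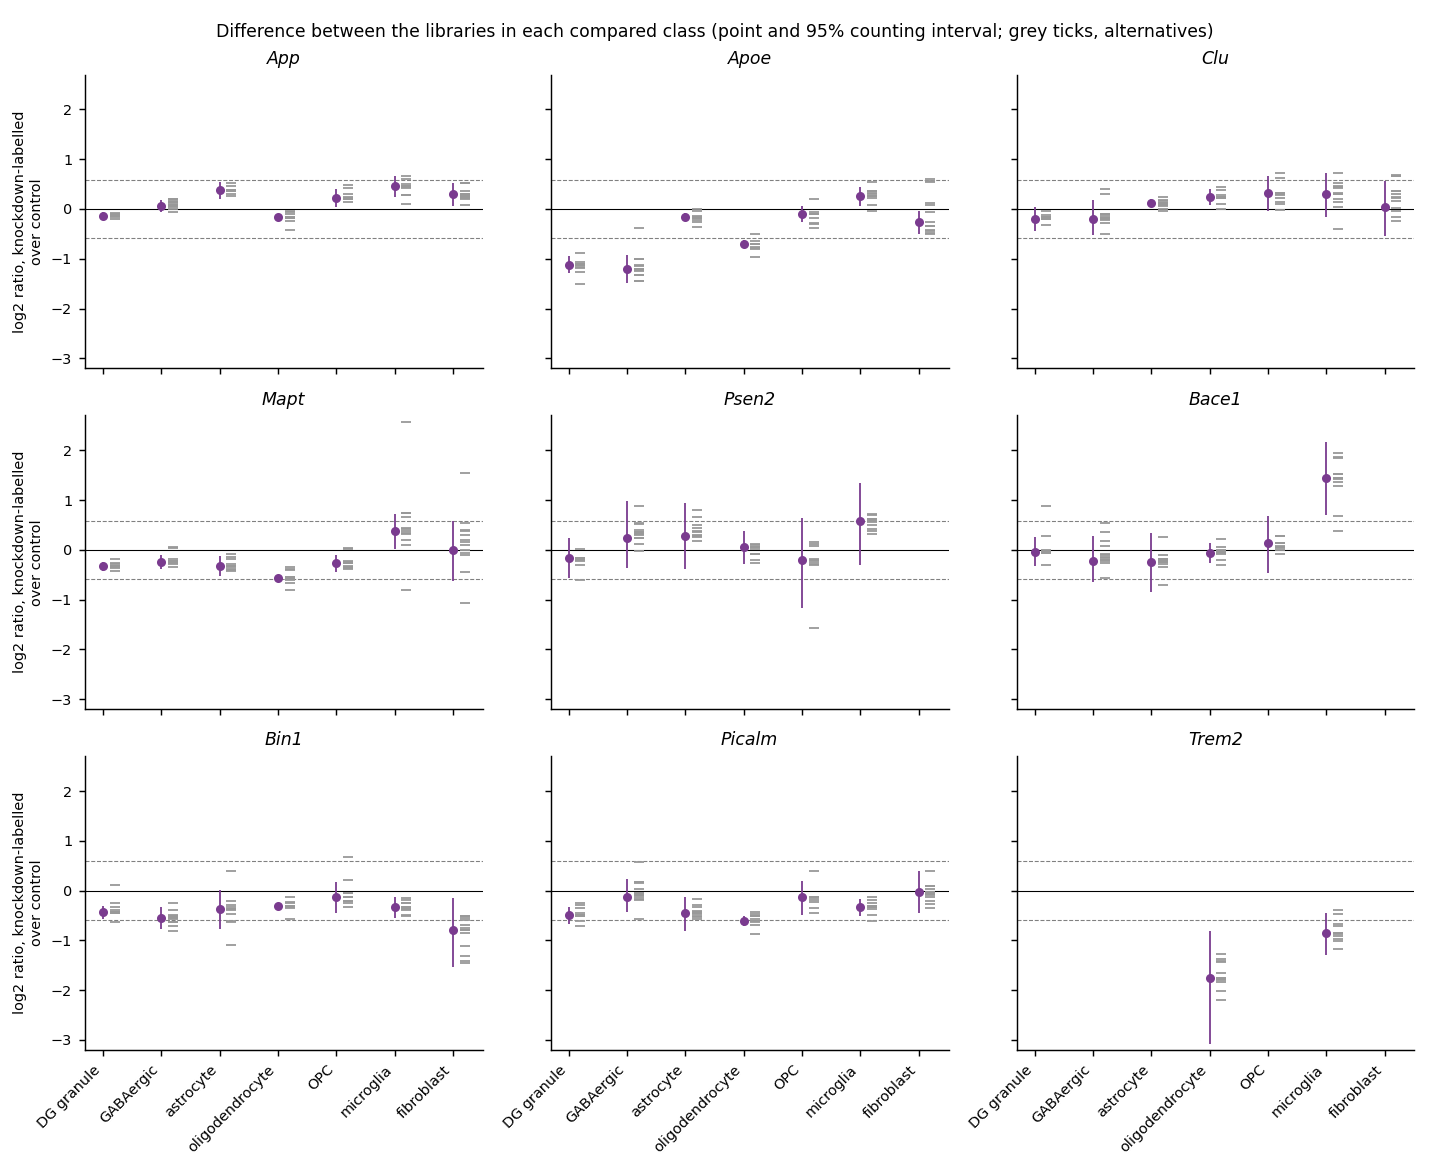
Log2 ratio of each gene between the libraries (knockdown-labelled over control) by class, with 95% counting intervals, grey ticks for the value under each other way of processing, and dashed lines at 1.5-fold. Apoe lies below the lower dashed line in DG granule, GABAergic and oligodendrocyte columns, while Bin1 and Picalm lie below 0 in 7 of 7 classes.

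App, the precursor of amyloid-beta, was present in every class measured. It stood at 952 CPM in knockdown-labelled and 1071 CPM in control oligodendrocyte-like nuclei, the highest class of both libraries, although in the control library the interval overlapped that of endothelial-like nuclei at 977 CPM. The lowest class of both libraries was the astrocyte-like one, at 343 CPM in the knockdown-labelled and 265 CPM in the control library. Neurons lay between them. In the knockdown-labelled library GABAergic-like (569 CPM), medium spiny neuron-like (551 CPM), CA3 pyramidal-like (532 CPM) and CA1 pyramidal-like nuclei (503 CPM) followed one another with overlapping intervals, and DG granule-like nuclei were lower at 393 CPM. An App UMI was seen in 88.0% of knockdown-labelled and 94.4% of control DG granule-like nuclei.

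Between the libraries App differed by less than 1.5-fold in all 7 classes. It was higher in the knockdown-labelled library in astrocyte-like nuclei by a log2 ratio of 0.37 (0.20 to 0.54), in microglia-like nuclei, where 502 CPM stood against 367 CPM, by 0.45 (0.25 to 0.65), in fibroblast-like nuclei by 0.29 (0.05 to 0.53) and in OPC-like nuclei by 0.22 (0.05 to 0.40). It was lower in oligodendrocyte-like nuclei by -0.17 (-0.22 to -0.12) and in DG granule-like nuclei, at 393 against 434 CPM, by -0.14 (-0.22 to -0.06). The GABAergic interval spanned 0. Within the clusters of the unevenly filled classes the App values were smaller or less certain. The 4 oligodendrocyte-like clusters gave -0.02, 0.08, -0.09 and -0.15, with 3 intervals spanning 0, and the ratio was -0.04 with the clusters weighted equally. The 2 microglia-like clusters gave 0.41 (-0.10 to 0.85) in cluster 11 and 0.15 (-0.10 to 0.40) in cluster 14, and 0.28 with equal weights. In microglia-like nuclei the App ratio was past 1.5-fold in 2 of 12 alternatives, at 0.61 in male nuclei and 0.65 after subtraction of the library profile. The neuronal GABAergic markers in these nuclei also summed to 458 CPM in the knockdown-labelled and 199.9 CPM in the control library, with 13 of 14 higher. The part of this background in the App value was not tested.

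Bace1, the beta-secretase, ranged in the knockdown-labelled library from 25.1 CPM in astrocyte-like to 56.6 CPM in oligodendrocyte-like nuclei. The control library ranged from 18.9 CPM in microglia-like to 63.4 CPM in newly formed oligodendrocyte-like nuclei. Its intervals overlapped from one class to the next through the whole order of both libraries. In oligodendrocyte-like nuclei the libraries held 56.6 and 59.1 CPM (log2 ratio -0.06, -0.27 to 0.14), and in DG granule-like nuclei 29.5 and 30.3 CPM (-0.04, -0.33 to 0.26), and neither interval reached 1.5-fold. The DG granule-like value ranged from -0.31 to 0.88 over 13 alternatives.

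The call in microglia-like nuclei rested on 27 Bace1 UMIs in the knockdown-labelled and 43 in the control library, or 51.3 and 18.9 CPM, a log2 ratio of 1.45 (0.69 to 2.17). Microglia-like nuclei formed 2 clusters, and most of the knockdown-labelled nuclei sat in the second (cluster 14, 227 against 345 nuclei) while most control nuclei sat in the first (cluster 11, 47 against 753 nuclei). In cluster 14 there were 24 UMIs in the knockdown-labelled and 7 in the control library, a log2 ratio of 2.48 (1.29 to 4.00). Cluster 11 had 3 and 36 UMIs, a ratio of 0.56 with an interval from -1.98 to 2.02. In male nuclei the ratio was 0.38, short of 1.5-fold, at 23.6 against 20.3 CPM, and in female nuclei 1.95, at 73.2 against 19.0 CPM. With marked doublets kept it was 0.67.

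Psen2, the gamma-secretase subunit, had the fewest UMIs after Trem2. Its level ran from 12.4 CPM in CA1 pyramidal-like to 34.2 CPM in microglia-like nuclei in the knockdown-labelled library, and from 7.61 CPM in newly formed oligodendrocyte-like to 53.8 CPM in endothelial-like nuclei of the control library, where those classes held 3 and 11 UMIs. In oligodendrocyte-like nuclei the libraries had 23.2 and 22.4 CPM, a log2 ratio of 0.06 (-0.28 to 0.37). All 6 measured intervals spanned 0, and the widest, in OPC-like nuclei with 15 and 47 UMIs, went from -1.17 to 0.64. In microglia-like nuclei, with 18 and 53 UMIs, it went from -0.30 to 1.35. At this depth a difference of 1.5-fold in Psen2 was detectable in oligodendrocyte-like nuclei and not in OPC-like or microglia-like nuclei.

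Apoe is the main carrier of cholesterol in brain and the largest common genetic risk for late-onset Alzheimer disease in humans. Astrocyte-like nuclei held 1899 CPM in the knockdown-labelled and 2116 CPM in the control library, and 96.0% and 98.3% of them had an Apoe UMI. The next classes, fibroblast-like, microglia-like, OPC-like and oligodendrocyte-like, lay between 336 and 625 CPM in the knockdown-labelled library and, with endothelial-like nuclei, between 449 and 752 CPM in the control library. Neurons were lowest. In the knockdown-labelled library CA3 pyramidal-like nuclei had 34.9 CPM, CA1 pyramidal-like 41.5 CPM, GABAergic-like 46.7 CPM and DG granule-like 55.5 CPM, and in the control library GABAergic-like nuclei had 108 CPM and DG granule-like nuclei 121 CPM.

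The bases around the start of Apoe are shown because Apoe carried 3 of the 7 lower calls. The window runs from 250 bases before to 50 bases after the RefSeq start, on the minus strand of chr7:19699139-19699438 in GRCm38.p6. Capitals mark GAGGAA, the core bound by the myeloid factor PU.1, on either strand (TTCCTC where it is read from the other strand). It occurs here at the first base of the window and again from 2 bases after the start, and 28.1% of 32544 promoter windows of this length hold it.
Apoe promoter: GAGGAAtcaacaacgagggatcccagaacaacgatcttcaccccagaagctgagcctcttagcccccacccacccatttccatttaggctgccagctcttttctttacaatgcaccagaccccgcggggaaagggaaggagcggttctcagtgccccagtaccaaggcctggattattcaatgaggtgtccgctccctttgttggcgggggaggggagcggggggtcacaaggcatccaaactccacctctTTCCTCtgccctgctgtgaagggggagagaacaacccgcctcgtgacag
No match to GGGCGG, the GC box, or to TATAAA was in this window, on either strand; 35.9% and 13.6% of all windows hold one. A match is a description, not a site.

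In DG granule-like nuclei Apoe had 739 UMIs in the knockdown-labelled and 501 in the control library, or 55.5 and 121 CPM, a log2 ratio of -1.12 (-1.29 to -0.95), which is 2.17-fold lower. A UMI was seen in 30.7% of the knockdown-labelled and 56.9% of the control nuclei at median depths of 6312 and 7231 UMIs, and in 5.02% and 13.5% after every nucleus was thinned to 1000 UMIs. GABAergic-like nuclei gave 46.7 and 108 CPM, a log2 ratio of -1.21 (-1.49 to -0.92). The difference had the same direction in male nuclei, at -1.06 and -1.01 in these classes, and in female nuclei, at -1.27 and -1.45. With a looser filter on nuclei the GABAergic value was -0.37, short of 1.5-fold.

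The background of other classes moved with these values. Over all nuclei Apoe was at 120.5 CPM in the knockdown-labelled and 563 CPM in the control library. The 12 oligodendrocyte markers summed to 536 and 1815 CPM in DG granule-like nuclei, with 0 of 12 higher in the knockdown-labelled library, and to 271 and 1956 CPM in GABAergic-like nuclei. The astrocyte markers summed to 246 and 317 CPM in DG granule-like nuclei, with 0 of 11 higher, and the 12 microglia markers to 96.5 and 190.3 CPM, with 0 higher. No marker of these 3 lists was at 0 in either library. The profile of each whole library was then subtracted at the lower quartile of the levels of other classes' markers relative to that library. In knockdown-labelled and control nuclei this was 13.5% and 7.73% in DG granule-like and 28.0% and 13.7% in GABAergic-like nuclei. The medians of these markers were higher, at 31.6% and 14.2%, and 62.8% and 29.2%. After it the log2 ratio of Apoe was -0.88 in DG granule-like and -0.996 in GABAergic-like nuclei, past 1.5-fold. Whether background remained was not tested.

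Oligodendrocyte-like nuclei had 1476 Apoe UMIs in the knockdown-labelled and 9786 in the control library, or 336 and 549 CPM, a log2 ratio of -0.71 (-0.79 to -0.63). They formed 4 clusters, and the libraries were spread unevenly over them. Cluster 3 held 1179 of the 2085 knockdown-labelled nuclei and 782 of the 7038 control nuclei, while cluster 0 held 467 and 3347. Apoe was lower in the knockdown-labelled library in each of the 4, by -0.79 in cluster 0, -0.40 in cluster 2, -0.97 in cluster 3 and -1.01 in cluster 4, and no interval reached 0. Microglia markers in these nuclei summed to 119 CPM in the knockdown-labelled and 277 CPM in the control library, with 12 of 12 lower, and astrocyte markers to 369 and 432 CPM. After subtraction of the library profile the Apoe ratio was -0.51, short of 1.5-fold.

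In the remaining 4 classes the libraries were within 1.5-fold. The log2 ratio was -0.16 (-0.22 to -0.09) in astrocyte-like nuclei and -0.10 (-0.25 to 0.06) in OPC-like nuclei. Fibroblast-like nuclei had 625 CPM in the knockdown-labelled and 752 CPM in the control library, a ratio of -0.26 (-0.51 to -0.03). The fibroblast-like sign held in only 8 of 13 alternatives. The ratio was 0.61 in male and -0.42 in female nuclei, 0.11 after subtraction of the library profile and 0.08 with clusters weighted equally. Microglia-like nuclei were the only class above 0 as first computed, with 534 and 449 CPM and a ratio of 0.25 (0.05 to 0.44). That sign came with the unequal clusters: within cluster 14 Apoe had 571 and 658 CPM (-0.20, -0.43 to 0.02), within cluster 11 378 and 351 CPM (0.12, -0.41 to 0.58), and with both clusters weighted equally the ratio was -0.04.

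Clu, which encodes the secreted chaperone clusterin, shared the astrocyte-like peak of Apoe and was more limited to it. Astrocyte-like nuclei had 1380 CPM in the knockdown-labelled and 1278 CPM in the control library, a log2 ratio of 0.11 (0.03 to 0.19). The next class, fibroblast-like, had 128 and 126 CPM, and DG granule-like nuclei 40.5 and 46.7 CPM. A Clu UMI was seen in 65.6% and 60.7% of astrocyte-like nuclei at 1000 UMIs each, against 3.53% and 3.70% of DG granule-like nuclei. Clu was within 1.5-fold in 7 of 7 classes, with an interval above 0 in astrocyte-like and oligodendrocyte-like nuclei and none below 0. The astrocyte-like value of 0.11 was 0.003 under TMM scaling and -0.04 in male nuclei. The oligodendrocyte-like value of 0.25 (0.08 to 0.41), at 87.1 against 73.5 CPM, was -0.01 under TMM scaling, which moved the median of all genes in that class by -0.25.

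Mapt, which encodes tau, is best known from neurons, and yet by CPM both libraries had their highest level in oligodendrocyte-like nuclei, at 1056 CPM in the knockdown-labelled and 1558 CPM in the control library. Newly formed oligodendrocyte-like nuclei of the control library followed at 1258 CPM. Neurons were next together with OPC-like nuclei. In the knockdown-labelled library OPC-like (377 CPM), GABAergic-like (368 CPM), CA3 pyramidal-like (354 CPM) and Cajal-Retzius-like nuclei (334 CPM) overlapped. CA1 pyramidal-like nuclei at 312 CPM and DG granule-like nuclei at 272 CPM followed, and the Cajal-Retzius-like interval (256 to 428 CPM) covered both of these levels. Fibroblast-like nuclei were lowest, at 109 and 110 CPM. At 1000 UMIs per nucleus, 62.0% of knockdown-labelled and 76.2% of control oligodendrocyte-like nuclei had a Mapt UMI, against 22.1% and 26.7% of DG granule-like nuclei.

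Mapt in oligodendrocyte-like nuclei had the narrowest interval of the 56 pairs, with a log2 ratio of -0.56 (-0.61 to -0.52) from 4645 and 27757 UMIs, just short of 1.5-fold. It was -0.50 in cluster 0, -0.54 in cluster 2, -0.20 in cluster 3 and -0.19 in cluster 4, each interval below 0, and -0.36 with the clusters weighted equally. Male nuclei had 1039 and 1360 CPM (-0.39) and female nuclei 1049 and 1665 CPM (-0.67). Under TMM scaling the value was -0.81, past the fold. The 12 oligodendrocyte markers of these nuclei summed to 15511 CPM in the knockdown-labelled and 23207 CPM in the control library, and the part of that difference in the Mapt value was not tested. Outside this class Mapt was lower by -0.33 in DG granule-like (272 and 342 CPM) and astrocyte-like nuclei, by -0.27 in OPC-like and by -0.25 in GABAergic-like nuclei, each interval below 0. In the OPC-like and GABAergic-like classes the sign held in 11 of 13 alternatives each. After subtraction of the library profile their ratios were 0.03 and 0.05. Male OPC-like nuclei gave 0.02, and female GABAergic-like nuclei 0.04. In microglia-like nuclei the Mapt ratio was 0.37 (0.01 to 0.71), with 169 and 131 CPM. Within cluster 14 it was -0.19 (-0.61 to 0.21), and over the alternatives for the class it ranged from -0.80 to 2.57.

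**Figure D3:**
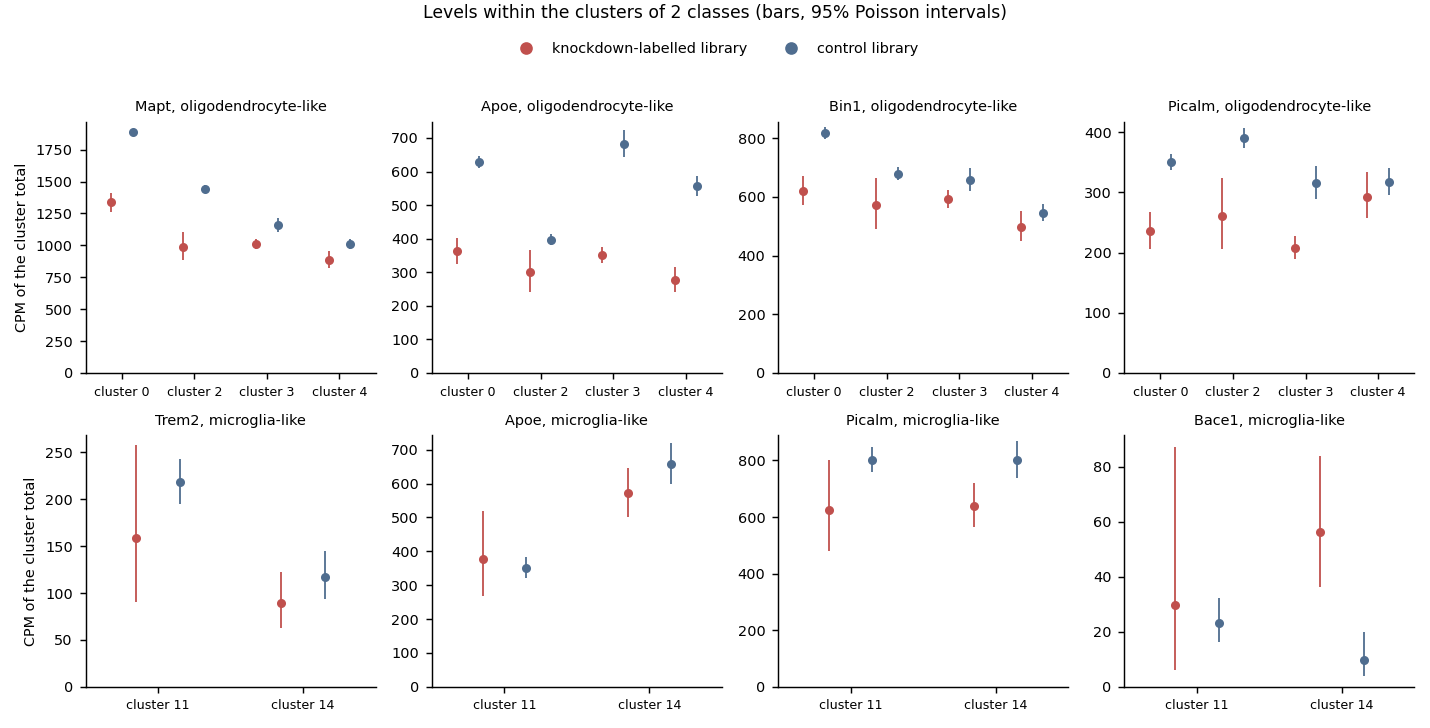
CPM of 6 genes within the clusters that make up the oligodendrocyte-like class (Mapt, Apoe, Bin1 and Picalm) and the microglia-like class (Trem2, Apoe, Picalm and Bace1), knockdown-labelled in red left of control in blue, with 95% Poisson intervals. In clusters 0, 2, 3 and 4 the knockdown-labelled points of Mapt, Apoe, Bin1 and Picalm lie below the control points; in clusters 11 and 14 the Trem2 intervals overlap.

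Bin1 encodes an amphiphysin-family protein that bends membrane, and it is a common risk gene in humans. Oligodendrocyte-like nuclei were highest, with 579 CPM in the knockdown-labelled and 721 CPM in the control library. Microglia-like nuclei had 420.1 and 532 CPM, and Cajal-Retzius-like nuclei 264 and 415 CPM. In the control library newly formed oligodendrocyte-like nuclei, at 568 CPM, overlapped the microglia-like level. Astrocyte-like nuclei were lowest in both libraries, at 54.2 and 69.9 CPM. Other neurons stood between 75.1 and 135 CPM in the knockdown-labelled library and between 163 and 181 CPM in the control library.

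The log2 ratio of Bin1 was below 0 in 7 of 7 classes. The interval excluded 0 in 5 of them: -0.44 (-0.56 to -0.30) in DG granule-like nuclei with 121 and 163 CPM, -0.56 (-0.77 to -0.34) in GABAergic-like nuclei with 123 and 181 CPM, -0.32 (-0.38 to -0.25) in oligodendrocyte-like nuclei, -0.34 (-0.55 to -0.13) in microglia-like nuclei and -0.79 (-1.54 to -0.14) in fibroblast-like nuclei. Within the microglia-like clusters both intervals spanned 0, at -0.25 (-0.72 to 0.15) in cluster 11 and -0.12 (-0.39 to 0.15) in cluster 14, and the ratio was -0.18 with the clusters weighted equally. The oligodendrocyte-like ratio was -0.23 with equal weights. The fibroblast-like value is the only Bin1 call, from 23 UMIs in the knockdown-labelled and 96 in the control library, or 71.9 and 126 CPM. Oligodendrocyte markers in fibroblast-like nuclei summed to 1038 and 3476 CPM, with 12 of 12 lower in the knockdown-labelled library, and their part in the Bin1 value was not tested. In DG granule-like nuclei the direction turned in 1 of 13 alternatives (0.12 at most), and after subtraction of the library profile the ratio was -0.24.

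Picalm encodes a clathrin adaptor of endocytosis. Microglia-like nuclei were highest, at 637 CPM in the knockdown-labelled and 802 CPM in the control library, with 65.3% and 76.0% of nuclei having a UMI. Oligodendrocyte-like nuclei (233 and 356 CPM) and fibroblast-like nuclei (213 and 217 CPM) were lower. In the control library endothelial-like nuclei, at 347 CPM, overlapped the oligodendrocyte-like level and stood above the fibroblast-like one. Neurons, astrocyte-like and OPC-like nuclei of the knockdown-labelled library all lay between 59.9 and 93.2 CPM, and most of their intervals overlapped.

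The window of Picalm is shown beside that of Trem2 below because these are the genes with a window that were highest in microglia-like nuclei. It lies on the plus strand of chr7:90129963-90130262 in GRCm38.p6, from 250 bases before to 50 after the RefSeq start. Capitals mark GAGGAA and GGGCGG on either strand (TTCCTC and CCGCCC from the other). GAGGAA starts 57 and 31 bases before the start, and GGGCGG has 6 matches, 1 of which ends where the second GAGGAA begins.
Picalm promoter: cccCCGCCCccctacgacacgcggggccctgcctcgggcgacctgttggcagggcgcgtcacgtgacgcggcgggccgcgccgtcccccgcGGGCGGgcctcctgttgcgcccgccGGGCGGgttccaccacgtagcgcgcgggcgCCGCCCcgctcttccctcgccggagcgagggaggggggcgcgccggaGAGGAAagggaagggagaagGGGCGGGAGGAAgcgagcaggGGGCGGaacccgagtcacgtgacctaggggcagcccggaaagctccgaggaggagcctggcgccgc
The window is 78% G and C and holds no TATAAA.

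In oligodendrocyte-like nuclei Picalm had 1024 UMIs in the knockdown-labelled and 6334 in the control library, a log2 ratio of -0.61 (-0.71 to -0.52). It stayed past 1.5-fold in 8 of 13 alternatives. The value was -0.57 in clusters 0 and 2, -0.60 in cluster 3 and -0.11 (-0.33 to 0.10) in cluster 4. It was -0.52 in male and in female nuclei, -0.47 with clusters weighted equally and -0.44 after subtraction of the library profile. Microglia markers, which were 119 CPM in the knockdown-labelled and 277 CPM in the control nuclei of this class, moved the same way. In DG granule-like nuclei Picalm was 68.2 against 96.2 CPM (-0.50, -0.67 to -0.32), in astrocyte-like nuclei -0.46 (-0.81 to -0.12) and in microglia-like nuclei -0.33 (-0.50 to -0.16), the last with -0.34 in cluster 11 and -0.32 in cluster 14. The remaining 3 intervals spanned 0.

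Among the classes with at least 50 nuclei in a library, Trem2, the microglial receptor whose coding variants raise risk in humans, was close to confined to microglia-like nuclei. They had 103 CPM in the knockdown-labelled and 186 CPM in the control library. Every other class of the knockdown-labelled library had at most 1.82 CPM, and in the control library the next classes were fibroblast-like nuclei at 21.0 CPM and endothelial-like nuclei at 19.5 CPM. A Trem2 UMI was seen in 17.2% of knockdown-labelled and 29.9% of control microglia-like nuclei, against 0.646% and 1.67% of DG granule-like nuclei, which should lack the receptor, at median depths of 1788 and 1922 UMIs in microglia-like and 6312 and 7231 UMIs in DG granule-like nuclei. Perivascular macrophage-like nuclei, which numbered 13 in the knockdown-labelled and 49 in the control library, were too few for a comparison. In the 49 control nuclei, however, Trem2 was at 76.3 CPM (36.6 to 140.3) from 10 UMIs, above the fibroblast-like level.

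The window of Trem2 lies on the plus strand of chr17:48346151-48346450 in GRCm38.p6. Capitals mark its single GAGGAA, which is read from the other strand (TTCCTC) and starts 40 bases before the RefSeq start. No GGGCGG or TATAAA was found in it on either strand.
Trem2 promoter: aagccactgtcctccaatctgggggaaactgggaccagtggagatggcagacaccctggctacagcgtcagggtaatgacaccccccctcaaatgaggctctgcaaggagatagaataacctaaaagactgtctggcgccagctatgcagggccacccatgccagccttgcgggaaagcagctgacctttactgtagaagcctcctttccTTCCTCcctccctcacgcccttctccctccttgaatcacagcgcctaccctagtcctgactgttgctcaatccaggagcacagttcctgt
The window is 56% G and C, against 78% for Picalm and 57.7% for Apoe.

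In microglia-like nuclei Trem2 had 54 UMIs in the knockdown-labelled and 423 in the control library, a log2 ratio of -0.85 (-1.29 to -0.45). Most control nuclei sat in cluster 11, where Trem2 was at 159 CPM in the knockdown-labelled and 218 CPM in the control library (-0.41, -1.28 to 0.27). Most knockdown-labelled nuclei sat in cluster 14, with 89.3 and 117 CPM (-0.38, -0.98 to 0.18). With the clusters weighted equally the ratio was -0.40, within 1.5-fold, and the 2 cluster intervals spanned 0. Male nuclei had 126 and 179.9 CPM, a ratio of -0.48, and female nuclei 82.9 and 191 CPM, a ratio of -1.17. The 12 microglia markers of these nuclei also summed to less in the knockdown-labelled library, 7005 against 10570 CPM, and oligodendrocyte markers to 1538 against 3596 CPM.

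Trem2 counts outside microglia-like nuclei followed the library. Over all nuclei the receptor was at 1.53 CPM in the knockdown-labelled and 17.8 CPM in the control library. In oligodendrocyte-like nuclei there were 8 and 116 UMIs, or 1.82 and 6.51 CPM, a log2 ratio of -1.76 (-3.09 to -0.81), and 0.384% and 1.58% of nuclei had one. That share lay below the 0.646% and 1.67% of the deeper DG granule-like nuclei. At 1000 UMIs per nucleus the shares were 0.241% and 0.698% of oligodendrocyte-like, against 0.0994% and 0.370% of DG granule-like nuclei, with overlapping intervals, and no expression is read from them. Fibroblast-like nuclei had 0 and 16 UMIs, where 3 UMIs would be 9.38 CPM in the knockdown-labelled library. The other 4 classes had 1 to 15 UMIs in the knockdown-labelled and 7 to 16 in the control library.

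**Figure D4:**
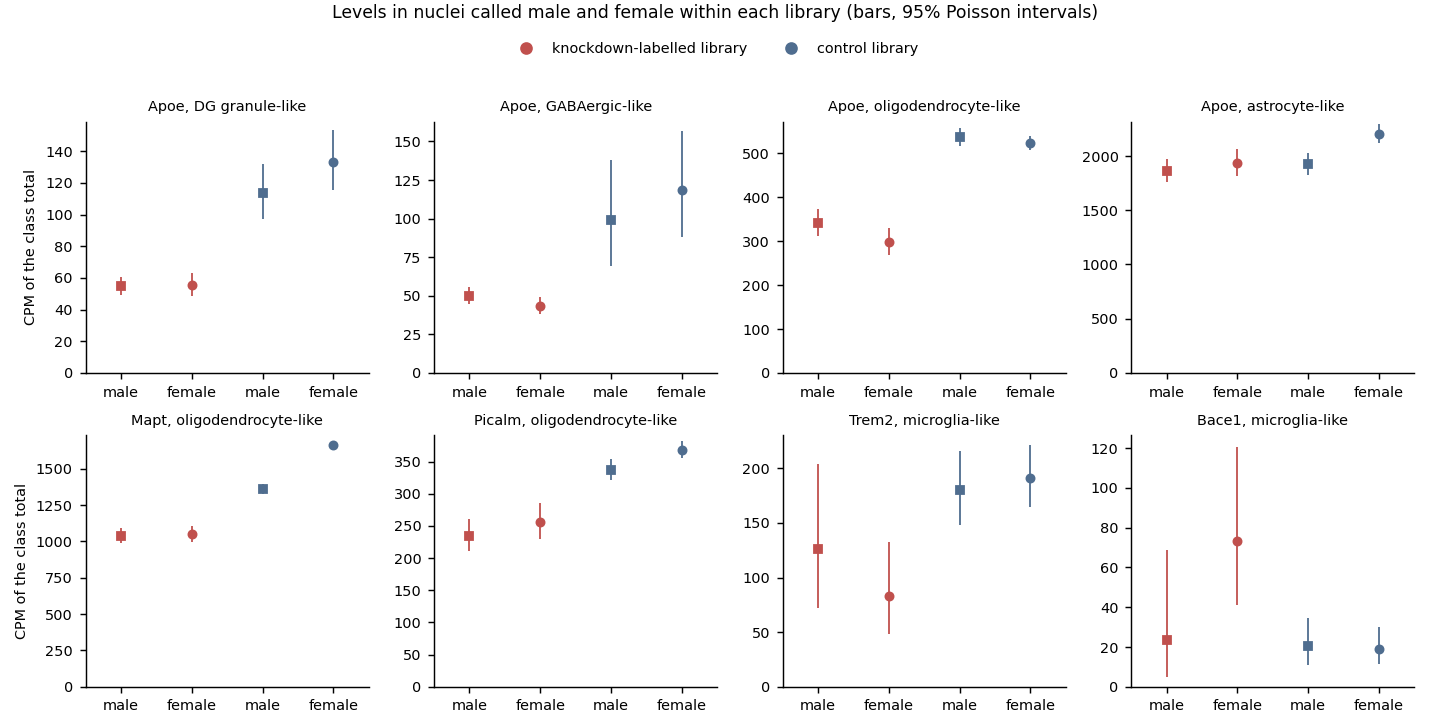
CPM in nuclei called male (Y-linked UMIs, no Xist) and female (Xist, no Y-linked UMIs) in each library for 8 pairs of gene and class, knockdown-labelled in red on the left and control in blue on the right, with 95% Poisson intervals. In both sexes Apoe of DG granule-like nuclei is lower in the knockdown-labelled library, at 54.7 and 55.3 CPM against 114 and 133 CPM. Bace1 of microglia-like nuclei rests on 27 and 43 UMIs over all sex calls. Its log2 ratio is 1.95 in female nuclei, at 73.2 against 19.0 CPM, and 0.38 in male nuclei.

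Across the 22 class and library units the genes that followed each member most closely were ranked by Pearson's r of log2(CPM + 5) among 13331 genes, as a description in which units of 1 library share its depth and background. Trem2 was closest to Gpr34 (0.97), Selplg (0.97) and Csf1r (0.97), Clu to Mlc1 (0.99), Aldoc (0.95) and Acsbg1 (0.95), and Apoe to Ilk (0.94), Ndrg2 (0.94) and Cd63 (0.93). Picalm was closest to Herc4 (0.94), Dnajb6 (0.92) and Adam10 (0.92), Bin1 to Zdhhc9 (0.90), Rffl (0.86) and Rtn4 (0.85), and Mapt to Pak5 (0.89), C230086J09Rik (0.87) and Nfasc (0.87). App followed Pkp4 (0.86), Dixdc1 (0.81) and Msh3 (0.80), Psen2 followed Rnaseh2a (0.89), Gm15886 (0.86) and Tmem134 (0.86), and Bace1 followed Gm37621 (0.78), Pcbp4 (0.76) and Arl2 (0.76). Among the 9 genes themselves Picalm and Trem2 had an r of 0.82 and Apoe and Clu 0.81, ahead of Bin1 and Picalm at 0.61. The lowest was Mapt with Psen2, at -0.45.

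The other genes of the field were taken as a list of 111 in 9 groups, all found in the tables. Those past the count minimum were called higher in 3 of 94 and lower in 4 in DG granule-like nuclei, 5 and 7 of 95 in GABAergic-like, 14 and 2 of 85 in astrocyte-like, 20 and 8 of 100 in oligodendrocyte-like, 10 and 2 of 84 in OPC-like, 15 and 7 of 86 in microglia-like and 7 and 2 of 56 in fibroblast-like nuclei. In the same order of classes, 9.15%, 13.6%, 14.1%, 24.8%, 11.6%, 16.2% and 12.3% of all genes were higher. The shares of all genes called lower were 5.7%, 11.7%, 6.22%, 7.25%, 6.99%, 11.3% and 14.8%. Over the classes together, 74 of 600 cases of the list were higher and 32 lower, beside 14.9% and 8.63% of all pairs. The median log2 ratio of the list lay between -0.06 and 0.08 by class, beside -0.09 to 0.15 over all genes. By median, the list as a whole therefore stayed near the middle of all genes.

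Itm2c, of the BRI family whose member Itm2b binds App, was called higher in 6 of 7 classes, more than any other gene of this list. Its level was 184 against 97.9 CPM in DG granule-like nuclei (log2 ratio 0.91, 0.76 to 1.06), 242 against 69.1 CPM in oligodendrocyte-like nuclei (1.81), 278 against 100.2 CPM in microglia-like nuclei (1.47), 211 against 86.1 CPM in OPC-like nuclei (1.29), 279.8 against 131 CPM in astrocyte-like nuclei (1.10) and 272 against 145 CPM in fibroblast-like nuclei (0.91). In GABAergic-like nuclei it had 140.2 and 101 CPM (0.46, 0.19 to 0.76). The male and the female ratio were above 0 in all 7 classes. The naming rule covered Itm2c in DG granule-like and OPC-like nuclei, and its other classes were added after its values were seen. The other adaptor called in neurons was Apbb3, at 33.3 against 16.4 CPM in GABAergic-like nuclei (0.98).

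Among secretases, Aph1b, a subunit of gamma-secretase, was higher in DG granule-like nuclei, at 14.0 against 8.90 CPM (0.64, 0.14 to 1.21), and in GABAergic-like nuclei, with 240 and 8 UMIs (0.87, -0.05 to 2.18). Adam17, an alpha-secretase, was lower in GABAergic-like nuclei, at 21.0 against 36.5 CPM (-0.81). Genes of App and Bace1 trafficking were called higher in 5 of 95 measured cases over the 7 classes and lower in 1. Beside this, 14.9% of all gene and class pairs were higher and 8.63% lower. Of the higher cases 3 were in oligodendrocyte-like nuclei, where 16 genes were measured and 24.8% of all genes were higher. The calls were 0 in DG granule-like, astrocyte-like and fibroblast-like nuclei, where 16, 15 and 7 were measured.

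Lipid carriers and their transporters were called lower in 9 of 41 measured cases over the 7 classes and higher in 0, beside 8.63% lower and 14.9% higher over all genes, and 4 of the 9 were Apod alone. Apod, another secreted lipid carrier, was lower in DG granule-like nuclei with 67.9 against 140.0 CPM (-1.05), in GABAergic-like nuclei with 59.8 against 242 CPM (-2.02), in astrocyte-like nuclei with 133 against 255 CPM (-0.94) and in OPC-like nuclei with 143 against 229 CPM (-0.68), the last at 0.09 after subtraction of the library profile. Abca1, which loads lipid onto Apoe, was at 10.7 against 19.7 CPM in DG granule-like nuclei (-0.88), and Abca7, a related transporter and risk gene, at 8.64 against 19.9 CPM in oligodendrocyte-like nuclei (-1.18) and 16.7 against 32.6 CPM in OPC-like nuclei (-0.93). Soat1, which esterifies cholesterol, was at 75.0 against 122 CPM in fibroblast-like nuclei (-0.68). The Apod and Apoe differences were thus of one sign in both neuronal classes, where oligodendrocyte and astrocyte markers were also lower.

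Kinases and microtubule proteins of the tau group were higher in 0 of 18 cases in DG granule-like, 1 of 18 in GABAergic-like, 5 of 18 in astrocyte-like, 4 of 18 in oligodendrocyte-like, 2 of 18 in OPC-like, 6 of 16 in microglia-like and 4 of 12 in fibroblast-like nuclei. In that order of classes 9.15%, 13.6%, 14.1%, 24.8%, 11.6%, 16.2% and 12.3% of all genes were higher. One gene of the group was lower, in microglia-like nuclei. Map2, a dendritic microtubule protein, was at 171 against 41.3 CPM in microglia-like nuclei (2.05) and 241 against 94.6 CPM in fibroblast-like nuclei (1.35), and Map1b at 194 against 52.3 CPM in microglia-like (1.89) and 199 against 97.5 CPM in OPC-like nuclei (1.03). The kinase Fyn was at 206 against 44.7 CPM in fibroblast-like nuclei (2.20). Of the endocytic and cytoskeletal risk genes, the kinase Ptk2b was at 73.5 against 13.6 CPM in astrocyte-like nuclei (2.41) and 71.6 against 15.7 CPM in oligodendrocyte-like nuclei (2.19), and dynamin Dnm1 at 64.5 against 12.8 CPM (2.32) and 70.9 against 13.2 CPM (2.42). Neuronal GABAergic markers were higher in these classes too, with 13 of 14 in astrocyte-like, 13 of 14 in microglia-like, 13 of 14 in fibroblast-like and 12 of 14 in oligodendrocyte-like nuclei, although in the last their sum was lower, at 1382 against 1655 CPM. Their part in these values was not tested. Apba1, an App adaptor, at 205 against 359 CPM (-0.80), and Cass4, at 19.0 against 53.2 CPM (-1.42), were lower in microglia-like nuclei. With the clusters weighted equally they were -0.42, short of 1.5-fold, and -0.74.

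Of the 13 microglial risk genes, 12 were measured in microglia-like, 10 in oligodendrocyte-like, 7 in DG granule-like and 6 in GABAergic-like nuclei, and at most 2 in each other class. In microglia-like nuclei 1 of 12 was higher and 2 lower, beside 16.2% and 11.3% of all genes. Their median log2 ratio was -0.11 beside 0.00 over all genes. In oligodendrocyte-like nuclei 6 of 10 were lower and 1 higher, beside 7.25% and 24.8% of all genes, with a median of -1.30. The most lowered was the phosphatase Inpp5d at 9 against 204 UMIs (-2.41). Subtraction of the library profile left no Inpp5d count in either library, so no ratio is read after it. Trem2 lay in this range with -1.76, and all 12 microglia markers, which include Inpp5d itself, were lower in the same nuclei.

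**Figure D5:**
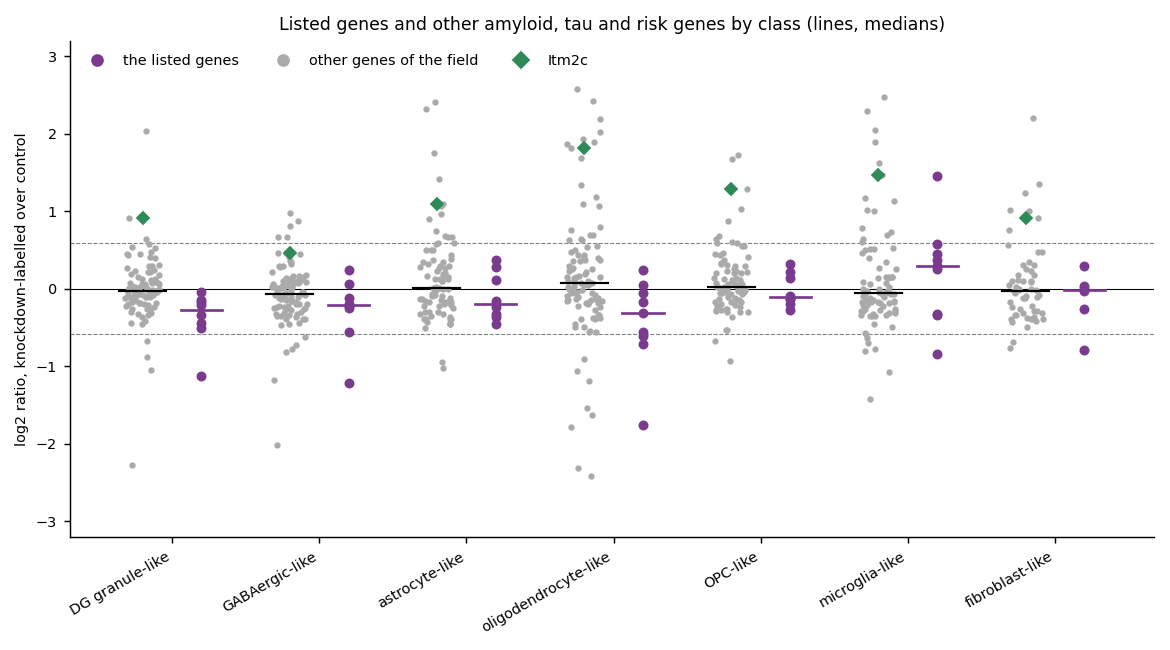
Log2 ratio (knockdown-labelled over control) by class for the 9 listed genes (purple), the other amyloid, tau and risk genes with at least 50 UMIs (grey) and Itm2c (green diamond), with lines at the medians and dashed lines at 1.5-fold. Itm2c lies above the upper dashed line in 6 of 7 classes, while the medians of the other genes lie between -0.06 and 0.08.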

How the data were processed

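Per the file headers and the submitters' processing notes, the authors deposited raw UMI counts per gene and barcode made with Cell Ranger 9.0.1, with bcl2fastq 5.0.1, Seurat 4.1.0 and the GRCm39 build also named in the notes. Whether intronic reads were counted is not stated by the sources at hand. Per the labels, nuclei were released by douncing, sorted on propidium iodide and loaded on a 10x 3' V3 chip. The libraries held 90594923 UMIs over 16693 barcodes (knockdown-labelled) and 41781481 UMIs over 12621 barcodes (control).

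Nuclei with at least 500 genes, 800 UMIs and under 5% mitochondrial UMIs were kept. Scrublet marked 1112 doublets (8.28%) in the knockdown-labelled library. In the control library its automatic threshold marked 0.016%, so the top scores at the expected rate were removed instead, 1366 nuclei (10.9%). For clustering, each nucleus was scaled to a total of 10000 on a log scale, and 2000 variable genes, 30 principal components and 15 neighbours gave 30 Leiden clusters at resolution 1, without integration. The 9 genes, the 111 other genes, Bcas2, sex-linked and mitochondrial genes were left out of the variable genes. Clusters were named from 218 markers, taking the class with the highest mean fold. A cluster stayed unnamed with fewer than 3 markers in 5% of nuclei or among its leading 100 genes, with more markers of another class among its top 10 genes, with low depth and no marker in that top 10, or with its first-listed marker in under 5% of nuclei. The last rule was added after a first clustering was seen. In all, 7 clusters stayed unnamed. The members, markers and gene lists were chosen with earlier results of these data known.

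Ratios have 0.5 UMIs added and exact conditional binomial intervals. Levels have exact Poisson intervals and shares Clopper-Pearson intervals. Named genes were the 9 members and, of the 111, the 2 highest and 2 lowest past 1.5-fold per class with at least 100 UMIs over both libraries, and the 3 genes most correlated with each member. Scripts ran in Python 3.11.15 with scanpy 1.11.5, leidenalg 0.10.2 and scipy 1.17.1, and edgeR 4.0.16 in R 4.3.3 gave TMM scaling factors only. They were checked on simulated data. Promoter windows are RefSeq's, on GRCm38.p6, found for 5 of the 9 genes; since that build differs from the counts' build, no other coordinates are given.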

Additional observations from a re-analysis of the deposited data

How the results depend on the processing

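Each log2 ratio of the 9 genes was recomputed under 13 alternatives, which gave 719 values: 617 moved by less than the counting interval, 102 moved by more, and no called pair changed direction. Subtraction of the library profile moved 29 of 56, and male nuclei alone moved 17. The count of higher pairs, 1 as reported, was 3 with the looser filter, 2 with the stricter filter, 2 after thinning to 1000 UMIs, 7 after free RNA subtraction, 6 in male nuclei, 2 with clusters weighted equally (an alternative chosen after seeing the data), and 0 with libraries centred or with a count minimum of 200. The count of lower pairs, 7 as reported, was 11 with marked doublets kept. Of the 111 other genes, the higher pairs, 74 as reported, were 37 at a count minimum of 200, and the lower pairs, 32 as reported, were 49 under TMM scaling, 54 at a minimum of 20 and 16 at a minimum of 200. The cause of these moves was not tested, except that a higher minimum leaves fewer pairs. With libraries centred, microglia-like clusters stayed unnamed, so their pairs have no value there. Depth limits Psen2, Bace1 and Trem2 in the small classes. No paired analysis was possible because each group has 1 library.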

Other observations

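Medium spiny neuron-like nuclei, 290 in the knockdown-labelled and 68 in the control library, were too few in the control library for the comparison above. In them Apoe had 55.2 CPM in the knockdown-labelled and 137 CPM in the control library (log2 ratio -1.32, -1.80 to -0.79), Bin1 75.1 and 164 CPM (-1.13, -1.57 to -0.67), Mapt 253 and 445 CPM (-0.82, -1.07 to -0.55) and Picalm 90.4 and 145 CPM (-0.69, -1.13 to -0.21). App in the same nuclei had 551 and 590 CPM (-0.10, -0.31 to 0.12). In this class the knockdown-labelled nuclei were the deeper ones, with medians of 6204.5 against 4321 UMIs. Of the knockdown-labelled nuclei 11 were called male and 222 female, against 15 and 40 in the control library. The part of depth, sex and background in these values was not tested. Apoe was also lower in Cajal-Retzius-like nuclei, with 119 and 257 CPM (-1.09, -1.84 to -0.46), and in choroid plexus epithelium-like nuclei, with 171 and 559.8 CPM from 35 and 133 UMIs (-1.69, -2.29 to -1.16).

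An unnamed cluster with a median of 1044 UMIs in the knockdown-labelled library, led by Igfbpl1, 2610307P16Rik and Dlx6os1, held 911 knockdown-labelled and 113 control nuclei. Clu was at 225 CPM in the knockdown-labelled and 31.8 CPM in the control nuclei of this cluster, from 247 and 10 UMIs (log2 ratio 2.76, 1.92 to 3.91), and App at 860.4 and 486 CPM (0.82, 0.58 to 1.08). Bin1 (-1.07), Picalm (-1.01) and Mapt (-0.76) were lower in the same nuclei, and Apoe differed little, at 349 and 343 CPM (0.02, -0.29 to 0.34). These nuclei differ between the libraries in number and were not named, so no cell type is given to the Clu value.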
